A study of Caenorhabditis elegans with 48 samples.

Results

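Transcripts of the small heat shock protein genes outside the hsp-16 family were followed in young adult Caenorhabditis elegans. The group holds 8 genes, hsp-12.1, hsp-12.2, hsp-12.3, hsp-12.6, hsp-17, hsp-25, hsp-43 and sip-1. They were chosen with earlier results of these data known and were matched by their WormBase identifiers. All 8 were listed in each of the 4 strain tables, out of 13129 genes listed in at least 1 table and 12191 listed in all 4. Whole worms were sequenced from polyA RNA in 48 libraries, 3 for each of 16 groups. Larvae synchronised by bleaching grew for 51 h into young adults and then spent 2 h on plates with auxin or with ethanol, the solvent of auxin. They were collected directly (NHS, 20 °C) or after 30 min in a water bath at 34 °C (HS).

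The strains differ in the degron system that removes a tagged protein when auxin is present. JTL611 carries hsf-1::aid::gfp, so that the heat shock factor HSF-1 bears the degron, together with ieSi57, which drives the plant F-box protein TIR1 from the eft-3 promoter in the soma. CA1200 carries ieSi57 and an untagged hsf-1, and is the control of JTL611. JTL621 carries hsf-1::aid::gfp with ieSi38, which drives TIR1 from the sun-1 promoter in the germline, and CA1199, its control, carries ieSi38 alone. All 4 strains also carry unc-119(ed3) and the rescuing Cbr-unc-119(+). TIR1 is thus present in the controls as well. The degron acts on the protein, so the level of hsf-1 mRNA, with group means from 30.4 to 51.8 CPM, is no measure of depletion. The labels number the replicates without saying that they came from separate cultures, so the p-values below measure only the spread between these libraries.

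Small heat shock proteins share an alpha-crystallin domain and, in most families, hold unfolding proteins in a refoldable state without using ATP. In C. elegans the hsp-16 genes are nearly silent at normal temperature and are switched on by HSF-1 on heat, whereas the genes described here are largely present without stress. The HSP-12 proteins are unusually short and showed little chaperone activity in vitro. SIP-1 is found in oocytes and embryos, HSP-25 has been located in muscle and pharynx, and HSP-17 has been described as promoting protein aggregation rather than preventing it. Both hsp-12.6 and sip-1 have been described among the genes that are high in long-lived insulin-signalling mutants, where they depend on HSF-1 and DAF-16.

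Positions are those of the Ensembl annotation of WBcel235. The neighbours hsp-12.3 (chromosome IV, 9444791 to 9445507) and hsp-12.6 (chromosome IV, 9446229 to 9447228) lie on the minus strand with 721 bases between them. On chromosome III are hsp-12.2 (8138077 to 8139631, plus strand) and sip-1 (10506106 to 10506801, minus strand). On the X chromosome are hsp-25 (6034463 to 6039644) and hsp-43 (6233151 to 6235543), both on the minus strand. On the minus strands of chromosomes V and I are hsp-17 (8384799 to 8385929) and hsp-12.1 (10581538 to 10582615). Protein-coding genes on the opposite strand overlap hsp-12.2 (C14B9.8), hsp-17 (F52E1.14) and hsp-25 (ipp-5). Noncoding RNA genes also overlap hsp-25 and sip-1 on the opposite strand, and piRNA genes overlap hsp-12.1 on the opposite and hsp-12.6 on the same strand. The libraries were directional, but whether the reads were counted by strand is not given in the sources used here, so reads of such a pair may be shared.

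Reads on listed genes ranged from 9000611 to 24025791 per library. CPM are the reads of a gene scaled to the effective library size that the deposited values carry, which is not the read total itself. On that scale 3 reads, the most that a count of 0 allows at 95% confidence, equal 0.127 to 0.478 CPM. These limits cover counting error only. The shallowest library was JTL621 on auxin with heat, replicate 2, in which ribosomal RNA genes took 34.5% of the reads (8.26% in the median library). Transcripts of hsp-16.2, a heat-inducible small heat shock gene, marked the heated libraries: they reached 138 to 638 CPM in all of them outside JTL611 on auxin, against at most 2.40 CPM without heat. In heated JTL611 on auxin they stood at 0.706, 0.633 and 0.680 CPM.

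The 8 genes differed in level by nearly 3 orders of magnitude. Per length, as CPM per kb of annotated exon, the median over 48 libraries was 1143 for sip-1, 35.3 for hsp-43, 28.7 for hsp-25 and 18.6 for hsp-17. It was 9.24 for hsp-12.2, 2.31 for hsp-12.3, 1.69 for hsp-12.1 and 1.54 for hsp-12.6. A single gene, sip-1, made up 90.8% to 93.1% of the summed length-scaled level of the 8 in the 16 groups. In unheated worms on ethanol sip-1 ranked first and hsp-43, hsp-25, hsp-17 and hsp-12.2 followed in that order in all 4 strains. The libraries of hsp-43 and hsp-25 overlapped in CA1199 and JTL621 and did not in JTL611 and CA1200. Those of hsp-12.2 overlapped the next gene, hsp-12.3, in JTL621. The genes hsp-12.3, hsp-12.1 and hsp-12.6 shared the bottom ranks with overlaps that changed from strain to strain.

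**Figure D1:**
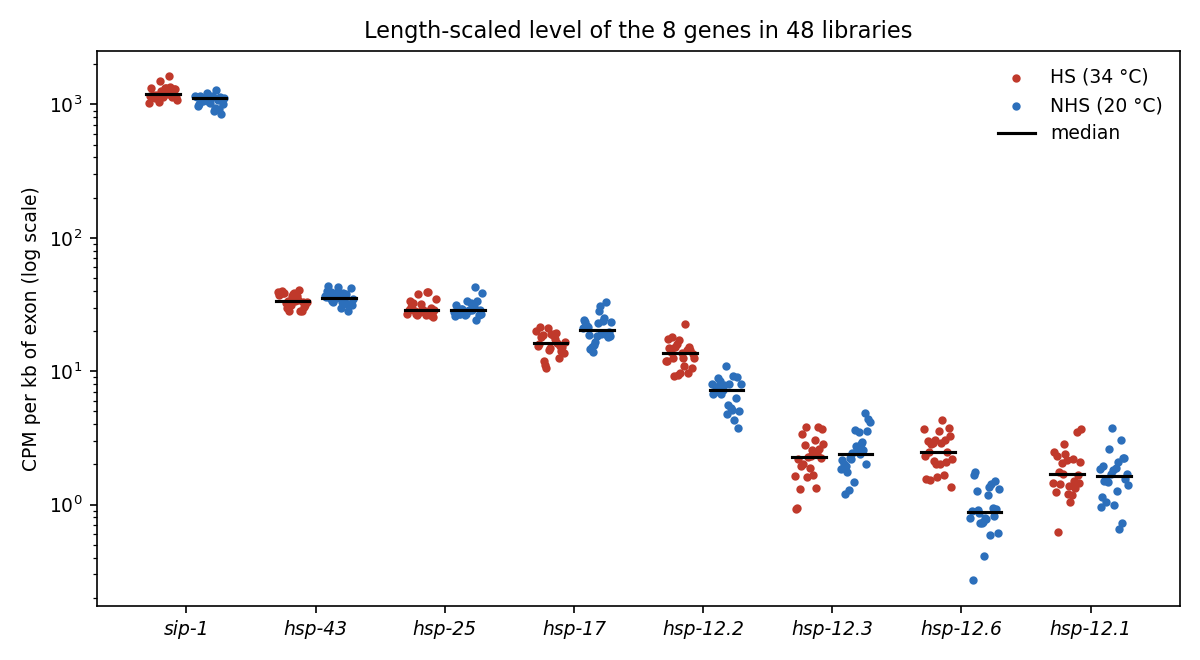
Length-scaled level (CPM per kb of exon, log axis) of the 8 genes in each of 48 libraries, 24 heated (left of each pair, red) and 24 unheated (right, blue), with the median as a line. The points of sip-1 are at 846 or more, and the clouds of hsp-12.2 and hsp-12.6 are shifted upward in the heated libraries.

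The summed length-scaled level of the 8 genes had group means from 1092 ± 143, in unheated JTL621 on ethanol, up to 1510 ± 229, in heated CA1199 on ethanol (SD, n = 3 each). The 6 hsp-16 genes summed on the same scale to 6196 to 10523 in the heated groups other than JTL611 on auxin, against 1.62 to 34.8 in the unheated groups. In heated JTL611 on auxin the hsp-16 sum was 56.3 ± 9.78 while the sum of the 8 genes was 1208 ± 73.8. Heated JTL611 on ethanol had 6196 ± 1914 for hsp-16 and 1400 ± 185 for the 8 genes.

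Heat raised the short genes hsp-12.2 and hsp-12.6, whereas hsp-17 fell and the abundant sip-1 rose slightly on ethanol. The test was limma on log2(CPM + 1), with Benjamini-Hochberg adjustment over the genes whose level averaged 1 CPM or more in the strain, and a call at an adjusted p under 0.05. This scale understates changes of genes near 1 CPM. On ethanol, averaged over the 4 strains, 4 of the 7 genes tested in every strain were called, 3 up and 1 down, where 40.5% of all genes were called. The median log2 change was 0.07 over the 7 and 0.02 over all genes tested. On auxin, a comparison added after the values were seen, 3 of 7 were called, 2 up and 1 down, against 42.4% of all genes, with medians of 0.01 and 0.03. These shares are close to those of all genes, and what follows is about single members. Too low for the filter in 3 strains, hsp-12.1 was tested in JTL611 alone.

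Within single strains fewer members passed. On ethanol 1 of 8 was called in JTL611 (hsp-12.6, where 6.49% of all genes were called), 1 of 7 in CA1200 (hsp-12.2, against 13.2%), 1 of 7 in JTL621 (hsp-12.2, against 9.97%) and 3 of 7 in CA1199 (hsp-12.2, hsp-12.6 and sip-1, against 18.3%), all of them up. On auxin 1 of 8 was called in JTL611 (hsp-12.6, against 7.64%). In CA1200 (background 19.4%), JTL621 (17.5%) and CA1199 (16.4%) the same 3 of 7 were called, hsp-12.2 and hsp-12.6 up and hsp-17 down. With the replicate number as a block, which the data pair in both JTL611 heat comparisons, JTL611 had 3 called on ethanol, hsp-12.6 and hsp-12.2 up and hsp-43 down, and 2 on auxin, hsp-12.6 and hsp-12.2. Single libraries decided several of these counts. In CA1199 they ranged from 1 to 3 on ethanol and 0 to 3 on auxin, in JTL621 from 0 to 1 and 0 to 3, and in JTL611 on ethanol from 1 to 2, when 1 library was left out. The libraries concerned are named with each gene. Some of them lie outside the comparison and share only its estimate of the spread. Leaving out such a library kept the log2 difference as it was and moved only the adjusted p.

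The first of the responsive genes was hsp-12.2, one of the short HSP-12 chaperone relatives. Over all strains and plates it had 4.74 to 11.7 CPM in the 24 heated libraries (median 7.04), against 1.93 to 5.63 CPM in the 24 unheated ones (median 3.75). On ethanol, heated JTL611 had 8.28, 4.82 and 8.80 CPM, against 3.73, 4.06 and 5.63 CPM without heat. CA1200 had 7.69, 7.18 and 9.30 CPM with heat, against 3.91, 3.93 and 4.60 CPM without. Only in JTL611 on ethanol did the groups overlap, through the heated replicate 2. JTL621 on ethanol had 5.43, 6.95 and 6.50 CPM with heat, against 1.93, 2.59 and 4.16 CPM without. CA1199 on ethanol had 5.67, 11.7 and 7.42 CPM with heat, against 2.74, 2.66 and 4.73 CPM without. In both germline strains replicate 3 was the highest unheated library.

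On auxin the picture of hsp-12.2 was much the same. JTL611 had 6.55, 4.74 and 7.88 CPM with heat, against 4.34, 3.47 and 3.77 CPM without. CA1200 had 6.17, 6.12 and 9.01 CPM with heat, against 4.18, 3.51 and 3.63 CPM without. Every heated library was above every unheated one in both strains. JTL621 had 4.99, 7.82 and 7.53 CPM with heat, against 2.22, 3.25 and 4.71 CPM without. CA1199 had 5.02, 7.13 and 6.45 CPM with heat, against 2.46, 2.87 and 4.17 CPM without. The heated and unheated libraries thus stayed apart in 7 of the 8 comparisons, which 2.31% of the 11673 genes tested in every strain did upward in at least 7.

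The ratio of group means of hsp-12.2 lay between 1.63 and 2.44 in the 8 comparisons. The log2 rise averaged over strains was 0.85 (SE 0.12, adjusted p = 2.36e-07 by limma) on ethanol and 0.74 (SE 0.12, adjusted p = 2.54e-06) on auxin, and no library left out ended either call. Within strains the rise on ethanol was 0.81 (SE 0.15) in CA1200, 0.94 (SE 0.25) in JTL621 and 1.06 (SE 0.25) in CA1199, all called. In JTL611 the log2 difference was 0.58 (SE 0.22, adjusted p = 0.163) on ethanol and 0.59 (SE 0.22, adjusted p = 0.147) on auxin, and 0.0430 and 0.0368 were the adjusted p with the replicate block. The JTL611 value on ethanol was also called without the heated replicate 2 (adjusted p = 0.0370). In JTL621 the call on ethanol was lost without any 1 of the heated libraries on ethanol or unheated replicate 1 or 2 on ethanol (adjusted p from 0.0647 to 0.135). Also in JTL621, the call on auxin was lost without auxin NHS replicate 1 or 2, auxin HS replicate 2 or 3, or the second replicate of either ethanol group (0.0502 to 0.0992), and in a fit of the compared libraries alone (0.112). In CA1199 the call on auxin was lost without auxin NHS replicate 1 or 2, auxin HS replicate 2 or 3, or ethanol HS replicate 3 (0.0513 to 0.140).

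Markers of the pharynx were also higher after heat. The summed level of the 7 pharynx markers, of which myo-1, myo-2, tnt-4, tni-4, pha-4 and marg-1 were tested and ceh-22 was not listed, was 118 to 403 CPM in the heated libraries, against 24.2 to 90.3 CPM in the unheated ones, with no overlap. Of the 6, 5 rose on ethanol over the 4 strains, among them the pharyngeal myosin gene myo-1 (log2 2.47, SE 0.23), the troponin T gene tnt-4 (1.56, SE 0.16) and the myosin gene myo-2 (2.50, SE 0.25). Their part in the hsp-12.2 result was not tested, and in whole worms more cells of a type and more RNA per cell cannot be told apart. The overlapping gene C14B9.8 on the other strand had 44.5 to 89.3 CPM. Its log2 difference with heat on ethanol was -0.14 (SE 0.06, adjusted p = 0.0566 by limma), which was not called. The part of C14B9.8 in the hsp-12.2 result was not tested.

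**Figure D2:**
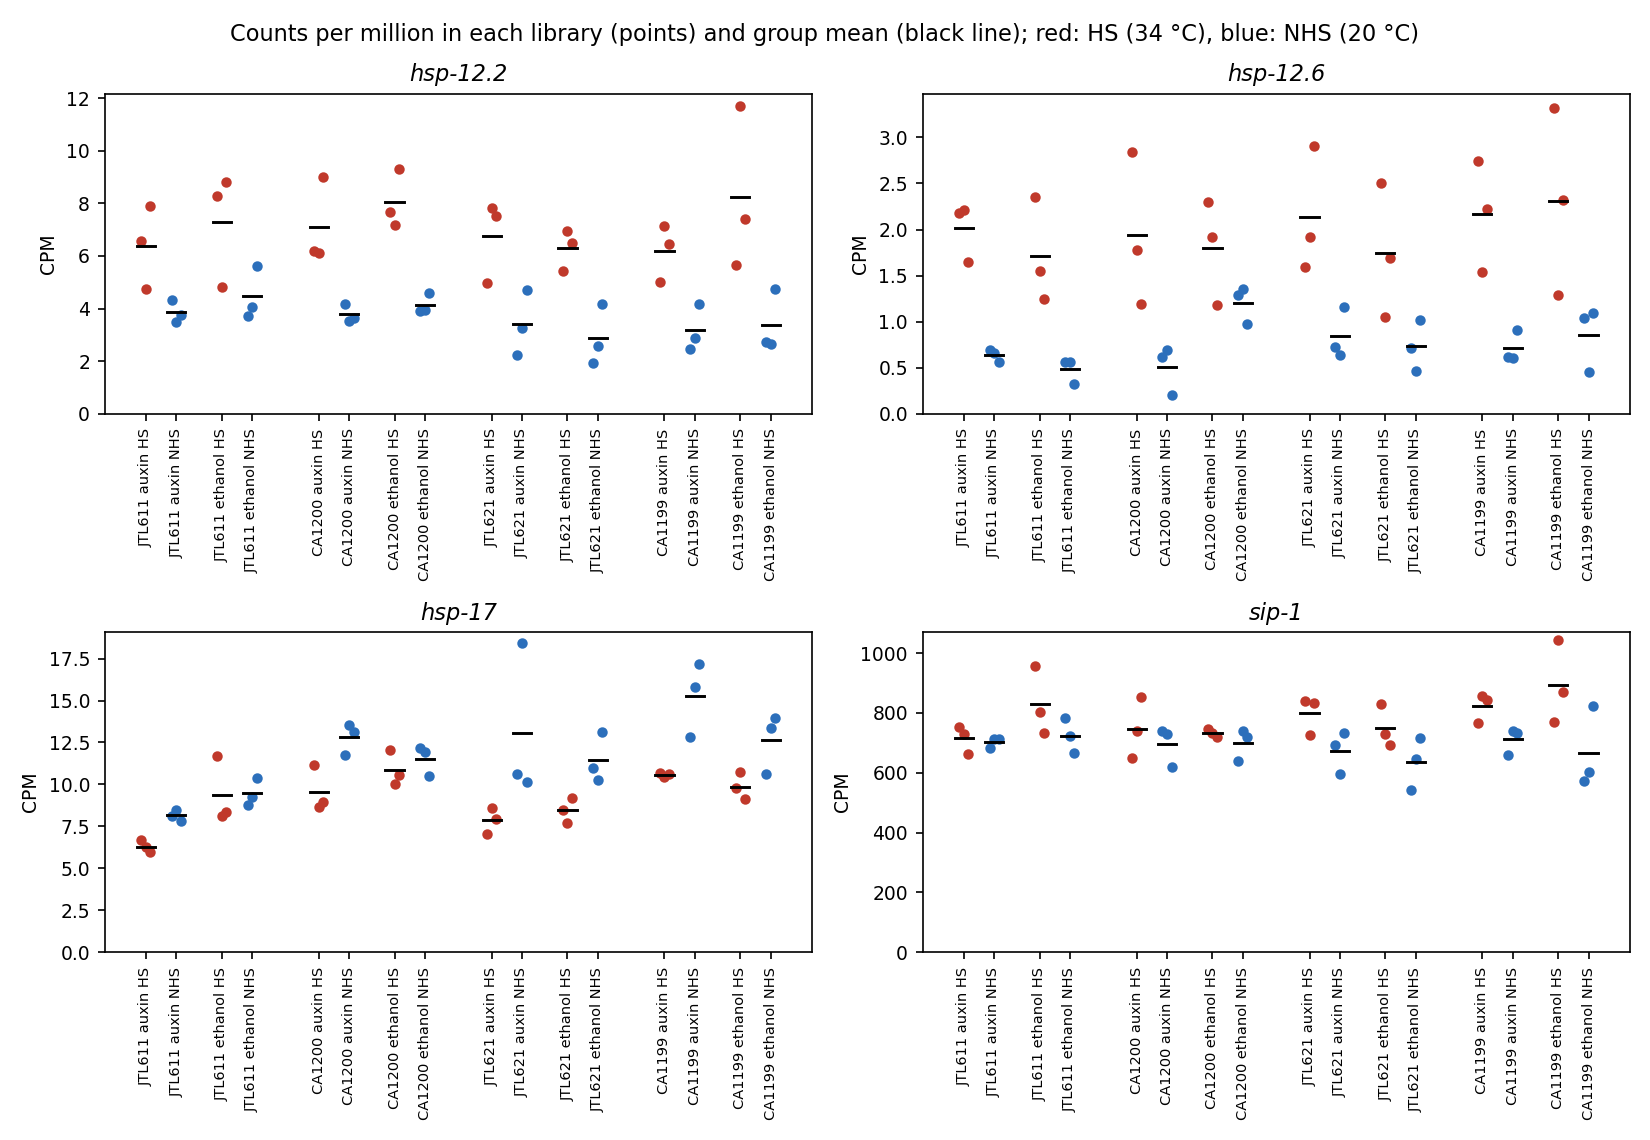
CPM of hsp-12.2, hsp-12.6, hsp-17 and sip-1 in each of the 3 libraries (points) of the 16 groups, with the group mean (line); heated groups (red) stand left of unheated ones (blue) and auxin left of ethanol in each strain. The heated groups of hsp-12.6 have means of 1.72 to 2.31 CPM in all 4 strains, JTL611 on auxin included.

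A rise was also seen in hsp-12.6, the neighbour of hsp-12.3 and a gene of the insulin-signalling longevity programme. It was the scarcest member per length in most unheated groups, with 4 to 24 reads in the unheated libraries and 12 to 59 reads in the heated ones, so its values carry a large counting error. Over all strains and plates it had 1.05 to 3.32 CPM in the heated libraries (median 1.92), against 0.207 to 1.36 CPM in the unheated ones (median 0.678). JTL611 on ethanol had 2.36, 1.55 and 1.24 CPM with heat, against 0.563, 0.566 and 0.319 CPM without. On auxin JTL611 had 2.18, 2.21 and 1.64 CPM with heat, against 0.696, 0.664 and 0.563 CPM without. The lowest heated library of JTL611 was thus above the highest unheated one on either plate. On ethanol CA1200 had 2.30, 1.92 and 1.18 CPM with heat, against 1.28, 1.36 and 0.971 CPM without. On auxin CA1200 had 2.84, 1.78 and 1.19 CPM with heat, against 0.615, 0.691 and 0.207 CPM without. Of the 8 comparisons, only CA1200 on ethanol had an overlap, heated replicate 3 lying below 2 of the unheated ones. Like hsp-12.2, hsp-12.6 thus belongs to the 2.31% of genes with every heated library higher in at least 7 of the 8.

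The germline strains followed the same pattern for hsp-12.6. JTL621 on ethanol had 2.51, 1.05 and 1.69 CPM with heat, against 0.718, 0.467 and 1.01 CPM without. JTL621 on auxin had 1.60, 1.91 and 2.90 CPM with heat, against 0.723, 0.634 and 1.16 CPM without. CA1199 on ethanol had 3.32, 1.29 and 2.33 CPM with heat, against 1.04, 0.455 and 1.09 CPM without. The groups did not overlap in these or in CA1199 on auxin, which had 2.75, 1.54 and 2.22 CPM with heat, against 0.614, 0.600 and 0.914 CPM without.

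The ratio of group means of hsp-12.6 lay between 1.49 and 3.84 over the 8 comparisons, with a median of 2.88. The log2 rise averaged over strains was 0.66 (SE 0.11, adjusted p = 6.74e-06 by limma) on ethanol and 0.86 (SE 0.11, adjusted p = 3.89e-08) on auxin, and no library left out ended either call. Because hsp-12.6 is low, the added 1 CPM compresses its change: limma-voom on the recovered reads gave log2 1.23 on ethanol and 1.62 on auxin. Within strains JTL611 had the calls least touched by single libraries, 0.86 (SE 0.17, adjusted p = 0.00851) on ethanol and 0.87 (SE 0.17, adjusted p = 0.00698) on auxin, held without any 1 of 12 libraries. A fit of the compared libraries alone lost the one on ethanol (adjusted p = 0.0848) and kept the one on auxin. CA1200 was called on auxin (0.94, SE 0.21), also without any 1 library, and not on ethanol (0.33, SE 0.21, adjusted p = 0.374). CA1199 was called on ethanol (0.80, SE 0.23), but not without ethanol HS replicate 1 or 3 or ethanol NHS replicate 2 (adjusted p from 0.0667 to 0.114), nor in a fit of the compared libraries alone (0.0543). It was called on auxin (0.88, SE 0.23), but not without auxin NHS replicate 1 or 2 or auxin HS replicate 1 or 3 (0.0569 to 0.0745). JTL621 was not called on ethanol (0.64, SE 0.23, adjusted p = 0.0966), except in a fit of the compared libraries alone (0.0427). It was called on auxin (0.76, SE 0.23), except without replicate 2 or 3 of auxin HS or replicate 1 or 2 of auxin NHS (0.0563 to 0.121) and in a fit of the compared libraries alone (0.0963).

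The abundant member sip-1, whose product is an oocyte and embryo small heat shock protein, had 651 to 1045 CPM in the heated libraries (median 761), against 542 to 824 CPM in the unheated ones (median 712). JTL611 on ethanol had 956, 803 and 732 CPM with heat, against 781, 722 and 667 CPM without. CA1199 on ethanol had 770, 1045 and 869 CPM with heat, against 574, 602 and 824 CPM without. JTL621 on ethanol had 830, 730 and 694 CPM with heat, against 542, 646 and 717 CPM without. In all 3 the heated group mean was higher and the groups overlapped. CA1200 on ethanol had 747, 733 and 719 CPM with heat, against 641, 741 and 720 CPM without, a difference within the spread. Counting error is small here, since 4557 reads or more were counted in each library.

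Averaged over strains, sip-1 rose on ethanol by log2 0.23 (SE 0.06, adjusted p = 0.00223 by limma), and the call held without any 1 of 48 libraries. On auxin the log2 difference was 0.15 (SE 0.06, adjusted p = 0.0548), 0.0363 with the replicate block and between 0.0278 and 0.119 when 1 library was left out. It passed without replicate 1 of CA1200 auxin HS or NHS, JTL611 ethanol HS replicate 1 or auxin HS replicate 3, JTL621 ethanol NHS replicate 1, auxin HS replicate 2 or auxin NHS replicate 3. In CA1199 it passed without replicate 1 of ethanol NHS, ethanol HS or auxin HS, ethanol HS replicate 2 or ethanol NHS replicate 3. The ethanol libraries named here are outside this comparison, and leaving 1 of them out kept the estimate at 0.15. The single-strain call, in CA1199 on ethanol (0.43, SE 0.14, adjusted p = 0.0476), was lost in 10 of the 12 fits that left out 1 library, whichever libraries these were other than ethanol HS replicate 1 and ethanol NHS replicate 3 (adjusted p from 0.0562 to 0.157). Without any 1 of the auxin libraries, which are outside this comparison, the estimate stayed at 0.43 (adjusted p from 0.0562 to 0.0672). The call was also lost under quantile normalisation (0.0720), with a filter at 5 CPM (0.0521) and in a fit of the compared libraries alone (0.151). The heated and unheated libraries of sip-1 did not overlap in 1 of the 8 comparisons, CA1199 on auxin, where 20.5% of all genes had every heated library higher. Of 11 oocyte and embryo markers, 2 rose on ethanol over the 4 strains, pie-1 (0.23, SE 0.06) and perm-4 (0.15, SE 0.06). Their summed level was 4485 to 7779 CPM in heated libraries, against 4524 to 7362 CPM in unheated ones, and its part in the sip-1 result was not tested.

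The third kind of response was a fall in hsp-17, and it was seen mainly on auxin plates. JTL611 on auxin had 6.68, 6.26 and 5.95 CPM with heat, against 8.14, 8.49 and 7.82 CPM without. CA1200 on auxin had 11.1, 8.63 and 8.95 CPM with heat, against 11.7, 13.6 and 13.1 CPM without. JTL621 on auxin had 7.05, 8.61 and 7.92 CPM with heat, against 10.6, 18.5 and 10.1 CPM without. All 3 strains had every heated library below every unheated one, as had CA1199 on auxin with 10.7, 10.4 and 10.6 CPM, against 12.8, 15.8 and 17.2 CPM. On ethanol the lower levels were less separate. JTL611 had 11.7, 8.10 and 8.35 CPM with heat, against 8.79, 9.26 and 10.4 CPM without. CA1200 had 12.05, 10.03 and 10.5 CPM with heat, against 12.15, 11.9 and 10.5 CPM without. JTL621 had 8.48, 7.69 and 9.20 CPM with heat, against 10.99, 10.3 and 13.1 CPM without. CA1199 had 9.77, 10.7 and 9.10 CPM with heat, against 10.6, 13.4 and 14.0 CPM without. Only JTL621 was free of overlap on ethanol, which makes 5 of the 8 comparisons, a state that 13.9% of all genes reached downward in at least 5.

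Averaged over strains, hsp-17 fell on auxin by 0.46 on the log2 scale (SE 0.07, adjusted p = 3.58e-06 by limma), without exception when 1 of 48 libraries was left out. On ethanol it fell by 0.21 (SE 0.07, adjusted p = 0.0242). The ethanol call was lost under quantile normalisation (log2 -0.11, adjusted p = 0.190) and without JTL611 ethanol HS replicate 2 (adjusted p = 0.0507) or JTL621 ethanol NHS replicate 3 (0.0530). Within strains the fall on auxin was called at log2 -0.39 (SE 0.12) in CA1200, -0.62 (SE 0.20) in JTL621 and -0.48 (SE 0.13) in CA1199, and in JTL611 the value was -0.33 (SE 0.14, adjusted p = 0.188). The CA1200 call was lost without replicate 2 or 3 of either auxin group (0.0881 to 0.113), under quantile normalisation (0.0946) and in a fit of the compared libraries alone (0.0753). The CA1199 call was lost without any 1 of the heated auxin libraries or auxin NHS replicate 2 or 3 (0.0585 to 0.118), and under quantile normalisation (0.0935). In JTL621 it was lost in 10 of 12 fits that left out 1 library, and held only without auxin NHS replicate 1 or 3. Without any 1 of the ethanol libraries, which are outside this comparison, the estimate stayed at -0.62 (adjusted p from 0.0565 to 0.0649). Without auxin NHS replicate 2, the library with 18.5 CPM, the fall measured -0.36. In JTL621 the fall also missed the threshold with limma-voom (0.0626), a filter at 5 CPM (0.0510), the replicate block (0.0535) and a fit of the compared libraries alone (0.176). On ethanol CA1199 had -0.32 (SE 0.13, adjusted p = 0.110), called without ethanol NHS replicate 1 (0.0447). The heat response of hsp-17 was not shown to differ between plates: the interaction was -0.30 in JTL611, -0.31 in CA1200, -0.23 in JTL621 and -0.16 in CA1199, with a smallest adjusted p of 0.908. The gene on its opposite strand, F52E1.14, had 59.9 to 147 CPM and fell by 0.59 (SE 0.07) on ethanol and by 0.61 (SE 0.07) on auxin, and its part in the hsp-17 result was not tested.

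**Figure D3:**
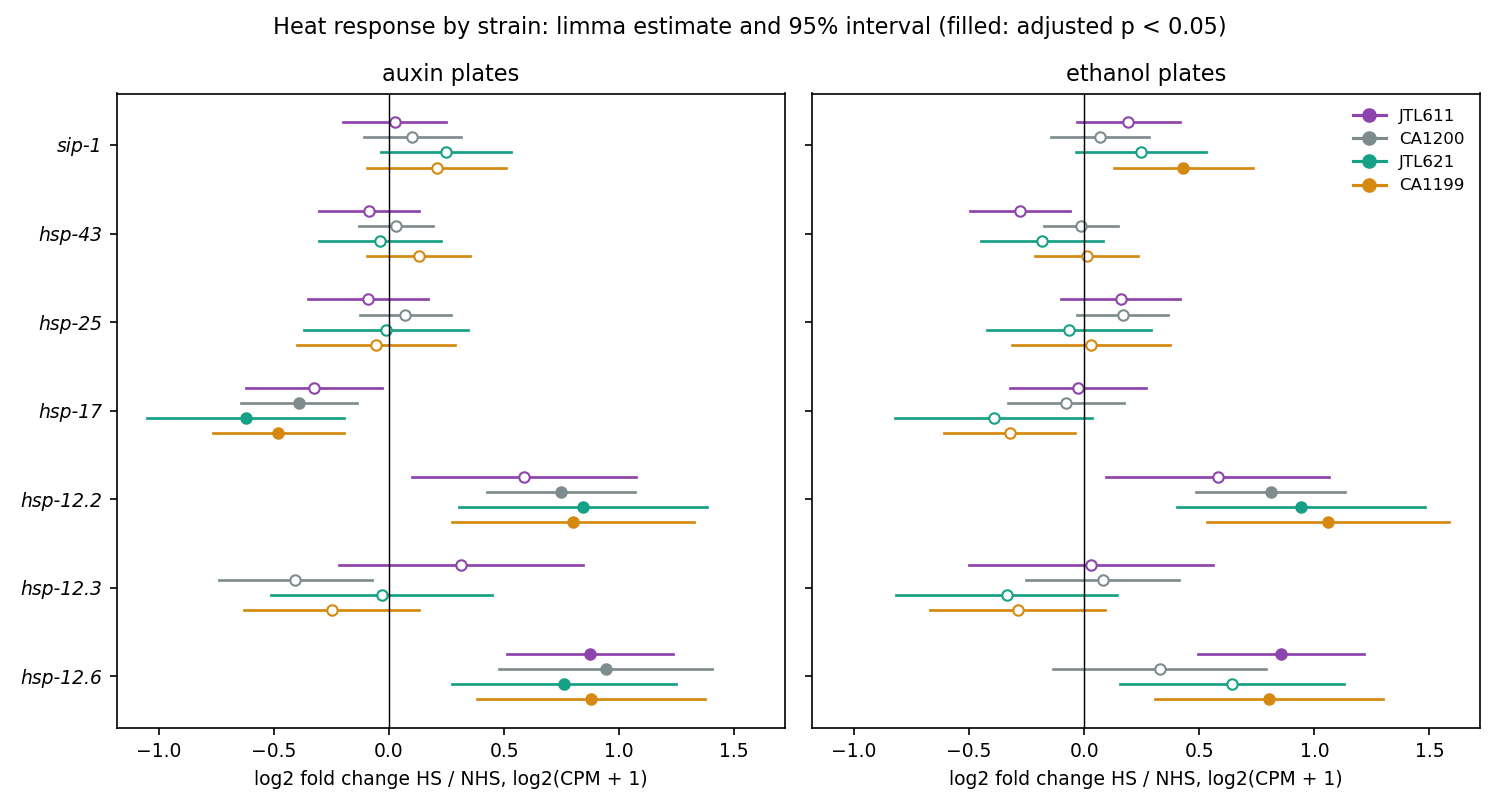
Log2 fold change of heated over unheated libraries on log2(CPM + 1) for 7 genes in 4 strains, on auxin (left) and ethanol (right); points are limma estimates, bars 95% intervals, and filled points are calls at an adjusted p under 0.05. Estimates of hsp-12.2 and hsp-12.6 are above 0 in every strain, and those of hsp-17 are below 0.

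The other members showed no called change with heat. The muscle-associated hsp-25 had 28.7 to 44.7 CPM in heated libraries, against 27.5 to 48.2 CPM in unheated ones, and averaged over strains its log2 difference was 0.07 on ethanol (95% interval -0.07 to 0.22) and -0.02 on auxin (-0.17 to 0.13). Its ratio of group means stayed between 0.937 and 1.13, so a change the size of that of hsp-12.2 is outside these intervals. The overlapping gene ipp-5, with 5.15 to 18.2 CPM, fell on ethanol by 0.79 (SE 0.08). The member with the longest annotated exons, hsp-43, had 39.0 to 56.6 CPM in heated libraries, against 38.9 to 60.2 CPM in unheated ones.

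For hsp-43 the mean log2 difference was -0.12 (SE 0.05, adjusted p = 0.0582) on ethanol and 0.01 (SE 0.05) on auxin. The value on ethanol passed with the replicate block (adjusted p = 0.0309), under quantile normalisation (0.0227), and without CA1200 ethanol NHS replicate 2, JTL611 ethanol NHS replicate 1 or HS replicate 3, JTL621 ethanol NHS replicate 2, or CA1199 ethanol NHS replicate 2 or HS replicate 3 (0.0206 to 0.0403). In JTL611 on ethanol hsp-43 had 39.3, 43.5 and 50.7 CPM with heat, against 49.2, 54.4 and 58.7 CPM without. The groups overlapped by 1 library, and the difference was -0.28 (SE 0.10, adjusted p = 0.131), or 0.0439 with the replicate block and 0.0486 without heated replicate 3.

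The scarce genes gave wide intervals. For hsp-12.3, the neighbour of hsp-12.6, there were 0.612 to 2.56 CPM in heated libraries, against 0.803 to 3.25 CPM in unheated ones, and the mean log2 difference was -0.13 (-0.34 to 0.08) on ethanol and -0.09 (-0.30 to 0.12) on auxin. The log2 difference of hsp-12.3 with heat on auxin was 0.31 (SE 0.24) in JTL611 and -0.41 (SE 0.15, adjusted p = 0.0804) in CA1200. The CA1200 value rested on 1.09, 0.612 and 0.623 CPM with heat, against 1.23, 1.44 and 1.35 CPM without, and was called without auxin HS replicate 1 (adjusted p = 0.0378). Transcripts of hsp-12.1 numbered 0.309 to 1.83 CPM in heated libraries, against 0.325 to 1.85 CPM in unheated ones. In JTL611, where it could be tested, hsp-12.1 differed by 0.04 (-0.36 to 0.45) on ethanol and -0.05 (-0.45 to 0.36) on auxin.

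Auxin in the strain with tagged HSF-1 and somatic TIR1 left the hsp-16 genes low after heat, and no member was called in the same comparison. Heated JTL611 on auxin was compared with heated JTL611 on ethanol. Of 8 members 0 were called, where 0.325% of all genes were called, whereas 6 of 8 tested genes of the list of other small heat shock genes fell (median log2 -6.38, against -0.01 over all genes) and 6 of 18 genes of the cytosolic chaperone network fell. Transcripts of hsp-16.2 fell by 6.85 on the log2 scale (SE 0.21, adjusted p = 1.29e-09 by limma), and those of hsp-70, an inducible Hsp70, fell by 6.97 (SE 0.17). For hsp-12.6 the same difference was 0.17 (SE 0.17, 95% interval -0.19 to 0.53), for hsp-12.2 -0.15 (SE 0.22, -0.64 to 0.33) and for sip-1 -0.21 (SE 0.10, -0.43 to 0.02). Some heat induction remained in JTL611 on auxin. There the length-scaled hsp-16 sum was 56.3 with heat, against 1.62 without, and hsp-70 rose by log2 1.04 (SE 0.17, adjusted p = 0.00254 by limma).

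The heat response itself was also compared between plates within JTL611. The interaction was 0.02 for hsp-12.6 (95% interval -0.49 to 0.52), 0.01 for hsp-12.2 (-0.68 to 0.69) and -0.17 for sip-1 (-0.48 to 0.15), and it was -6.83 for hsp-16.2 (-7.47 to -6.19). None of 8 members was called in this interaction, where 0.2% of all genes were. The log2 rise of hsp-12.6 on ethanol in JTL611 was 0.86, so a full loss of it is outside the interval, and a partial loss is inside. For hsp-12.2 the value on ethanol was 0.58, and even its full loss is inside the wide interval of this interaction. Measured directly, the heat difference of hsp-12.2 in JTL611 on auxin was 0.59, at an unadjusted p under 0.05 by limma. It was not called after adjustment, except with the replicate block (adjusted p = 0.0368), and every heated library was above every unheated one. With the heat response on auxin set against that of CA1200, a comparison added after the values were seen, JTL611 minus CA1200 was -0.07 for hsp-12.6 (-0.65 to 0.51), -0.16 for hsp-12.2 (-0.73 to 0.41) and -7.60 for hsp-16.2 (-8.30 to -6.90). None of 7 members was called there, against 0.39% of all genes.

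Of the members, hsp-17 had the largest difference between heated JTL611 on auxin and on ethanol. Its libraries had 6.68, 6.26 and 5.95 CPM on auxin, against 11.7, 8.10 and 8.35 CPM on ethanol. All 3 auxin libraries were lower, as for 4.09% of all genes. The difference was log2 -0.49 (SE 0.14, unadjusted p = 0.00343, adjusted p = 0.606 by limma across all genes). The heated auxin libraries of hsp-12.1 were also all lower, but this gene passed the 1 CPM filter through its ethanol groups. These averaged 1.23 CPM with heat and 1.20 CPM without, against 0.856 and 0.927 CPM on auxin, so the filter favoured this order. In the authors' deposited table of auxin against ethanol after heat, hsp-17 had a logFC of -0.57 and an FDR of 0.103 in JTL611. The same difference was -0.17 in CA1200, and JTL611 minus CA1200 was -0.32 (95% interval -0.68 to 0.04, adjusted p = 0.9998), with 0 of 7 members called, against 0.229% of all genes. The share of genes under an FDR of 0.05 in the authors' deposited table of JTL611 was 0.823%, and no member was among them in any of the 4 strains.

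**Figure D4:**
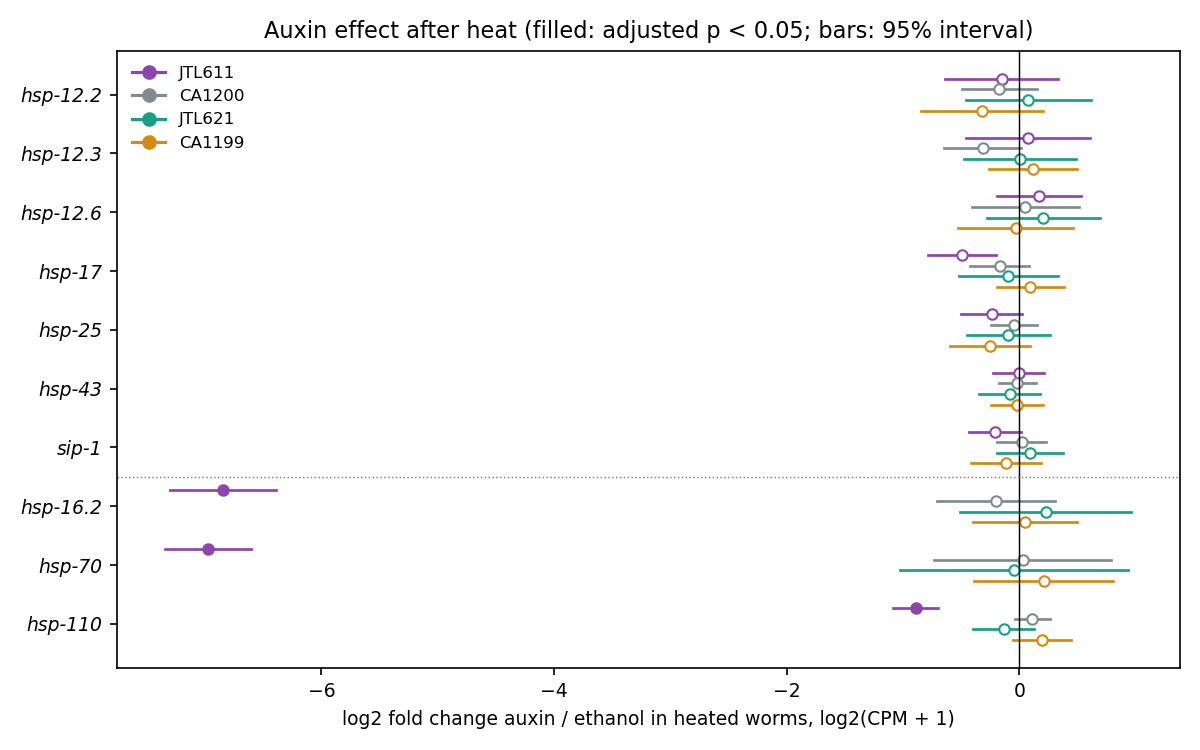
Log2 fold change of auxin over ethanol in heated worms on log2(CPM + 1), for 7 members (above the dotted line) and hsp-16.2, hsp-70 and hsp-110 (below it); points are limma estimates by strain, bars 95% intervals, and filled points are calls at an adjusted p under 0.05. In JTL611 hsp-16.2 and hsp-70 lie near -7, and the members lie between -0.49 and 0.17.

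Auxin called no member in the other strains or without heat. After heat, 0 of 7 were called in CA1200, JTL621 and CA1199, where 0.0589%, 0.172% and 0.246% of all genes were called. In JTL621 neither hsp-16.2 (log2 0.23, SE 0.34, adjusted p = 0.873 by limma) nor hsp-70 (-0.05, SE 0.45, adjusted p = 0.978) was called. These genes thus do not show in whole worms whether germline HSF-1 was depleted. Without heat, 0 of 8 were called in JTL611 and 0 of 7 in CA1200, JTL621 and CA1199, where 0.0916%, 0.177%, 0.172% and 0.213% of all genes were. The interactions of CA1200, JTL621 and CA1199 called no member and no other gene. Averaged over CA1200 and CA1199, which carry no tagged protein, 0 of 7 were called after heat and without heat, against 0.348% and 0.483% of all genes. For JTL611 minus CA1200 0 of 7 were called in the auxin effect without heat (0.00849% of all genes). In its heat response on ethanol 0 of 7 were called as well (0.0764%). There hsp-110, of the cytosolic chaperone network, was called, with a smaller rise in JTL611 (log2 -0.61, SE 0.11, adjusted p = 0.0216 by limma). The differences of hsp-16.2 (-0.44, SE 0.34) and hsp-70 (-0.56, SE 0.44) were not called. On ethanol with heat, hsp-16.2 averaged 200 CPM in JTL611 and 414 CPM in CA1200, and hsp-70 averaged 294 and 797 CPM. Whether HSF-1 was fully active in JTL611 on ethanol was not tested. For JTL621 minus CA1199, and for CA1199 minus CA1200 in the heat response on ethanol, no gene at all was called. The same was found with limma-voom on the recovered reads, and at an unadjusted p under 0.05 these comparisons held at most 1 member each.

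Those members differed from comparison to comparison. In unheated CA1200, hsp-12.6 had 0.615, 0.691 and 0.207 CPM on auxin, against 1.28, 1.36 and 0.971 CPM on ethanol, with a log2 difference of -0.56 (SE 0.21, unadjusted p = 0.0208, adjusted p = 0.9995 by limma). In unheated JTL611 it had 0.696, 0.664 and 0.563 CPM on auxin, against 0.563, 0.566 and 0.319 CPM on ethanol, and JTL611 minus CA1200 was 0.71 (SE 0.28, unadjusted p = 0.0183, adjusted p = 0.9999). The 2 strains differed in opposite directions, and neither passed the test. For hsp-43, the heat response on ethanol of JTL611 minus CA1200 was -0.27 (SE 0.12, unadjusted p = 0.0432). For hsp-12.3 on auxin JTL611 minus CA1200 was 0.72 (SE 0.29, unadjusted p = 0.0224), and the CA1200 interaction was -0.49 (SE 0.22, unadjusted p = 0.0437). For hsp-17 the auxin effect without heat averaged over CA1200 and CA1199 was 0.20 (SE 0.09, unadjusted p = 0.0332).

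The members did not vary as 1 set over the 48 libraries. On log2(CPM + 1), after the mean of each strain was subtracted, the Pearson r between pairs was highest for hsp-12.2 with sip-1 (0.678) and for hsp-12.2 with hsp-12.6 (0.642), and lowest for hsp-12.6 with hsp-17 (-0.536). The neighbours hsp-12.3 and hsp-12.6 had an r of -0.295. These values are descriptions over libraries that share strains and treatments, and the heat contrast is in all of them.

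Among all other genes tested in every strain, those most like hsp-12.2 were tni-3, which codes for a troponin I, kin-36 and phat-7, at r of 0.931, 0.925 and 0.918. Within the 24 heated libraries alone tni-3 had 0.835 with hsp-12.2, and within the 24 unheated ones 0.749. Most like hsp-17 were B0272.3, pah-1, which codes for phenylalanine hydroxylase, and fah-1, which codes for fumarylacetoacetase, at 0.794, 0.794 and 0.784. Within the heated libraries they had 0.472, 0.566 and 0.497 with hsp-17, and within the unheated ones 0.688, 0.656 and 0.566. Most like hsp-12.6 were K05C4.9, F09E10.15 and T27F6.8, at 0.880, 0.868 and 0.856. Within unheated libraries they had only 0.387, 0.296 and 0.231 with hsp-12.6, where its counts were lowest, and within heated ones 0.665, 0.533 and 0.647.

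The remaining members had other nearest genes. For sip-1 they were Y39B6A.42, rnp-5 and elb-1, at 0.864, 0.848 and 0.844, and these kept 0.733 or more in either heat state. Nearest to hsp-25 were F53H2.4, kdp-1 and the ribosomal protein gene rpl-6, at 0.806, 0.741 and 0.732. The nearest of hsp-43 (C14F11.4, T23B3.2 and T24B8.4, from 0.641 down to 0.603) and of hsp-12.3 (Y42G9A.2, C01G10.9 and gst-27, from 0.660 down to 0.644) were less like them. No gene appeared in the nearest 3 of more than 1 member.

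The related lists set the scale of these changes on ethanol over the 4 strains. Of 8 tested genes in the list of other small heat shock genes, 7 rose with a median log2 change of 7.66, hsp-16.2 among them (7.75, SE 0.14). Of the 18 genes of the cytosolic chaperone network 14 rose, with a median of 0.19. Of 10 genes described as DAF-16 targets 4 were tested, and icl-1 (0.76, SE 0.18), an isocitrate lyase, and lea-1 (0.27, SE 0.07) rose while the catalase gene ctl-2 fell by 0.23 (SE 0.08). The median of that list was 0.08, against 0.02 over all genes.

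Tissue markers also moved with heat, and all members were measured in whole worms. Over the 4 strains on ethanol 10 of 11 body wall muscle genes rose, 7 of 9 intestine genes fell and 8 of 10 neuron genes fell. Of 9 germline genes 3 rose and 1 fell, of 4 tested epidermis genes 1 fell, and of 9 sperm genes none was called. The summed muscle level was 5956 to 12221 CPM in heated libraries, against 4038 to 7149 CPM in unheated ones, and the summed intestine level was 17867 to 39014 CPM, against 23182 to 44696 CPM. The neuron list summed to 184 to 230 CPM in heated libraries, against 228 to 365 CPM in unheated ones. The part of these shifts in the members' changes was not tested.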

How the data were processed

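STAR, featureCounts and edgeR, with builds WBcel235 and ce11, are named without versions in the submitters' processing notes. The authors deposited 1 table of log2 values per strain, normalised separately, with the form of log2 CPM with a prior count of 2 reads. Their tables of auxin against ethanol after heat hold, per the file headers, log2 fold changes, an LR score, and PValue and FDR columns, which are p-values as deposited by the authors. The tests had been planned for linear values, so the log2 values were returned to linear CPM by subtracting each table's offset (0.116 to 0.119 CPM). All values tested for it, leaving out the very largest, then lay within 0.05 of whole reads. limma 3.58.1 (R 4.3.3), with a mean-variance trend, was fitted to log2(CPM + 1) over the 12 libraries of a strain, or jointly over strains, for genes averaging at least 1 CPM, two-sided, with Benjamini-Hochberg adjustment over all genes. The fits were also run on simulated counts, with larger changes than most calls of members and a more even spread. That run therefore does not vouch for the smaller calls. Exon lengths came from Ensembl release 115. Alternatives were limma-voom on recovered reads, a pseudocount of 0.25 CPM, the deposited values, no filter or 5 CPM, quantile normalisation, a replicate block, only the libraries compared, and leaving out each library.

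The data, not the labels, were used to judge pairing: replicate numbers were taken to pair libraries where all 3 correlations of deviations from group means exceeded 0.1. This held, at r from 0.102 to 0.664, for every CA1200 contrast, JTL611 except auxin with heat, CA1199 heat on auxin, and JTL621 heat on ethanol and auxin without heat. The members, gene lists and tests were chosen with earlier results of these data known. All 8 members were named, with up to 3 called genes of smallest adjusted p per list, hsp-16.2 and hsp-70 as points of comparison, and the 3 genes of highest r per member; hsp-110 and the overlapping genes were chosen after their values were seen.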

Additional observations from a re-analysis of the deposited data

How the results depend on the processing

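Of 816 counts of members called under the alternatives, 783 were equal to the reported count or within 1.5 times of it. Among these, the 22 comparisons with no member called had none in 546 alternative fits. In those 22 the smallest adjusted p of a member was 0.525 by limma, far from the threshold, so the 546 fits say little about stability. With a mean of at least 5 CPM, which removes hsp-12.1, hsp-12.3 and hsp-12.6 from every test and hsp-12.2 from those of JTL621 and of all 4 strains together, the heat response on ethanol had 0 in JTL611, 1 in CA1199, 0 in JTL621 and 2 over the 4 strains, and that on auxin 0 in JTL611, 0 in JTL621 and 1 over the 4 strains. Fits of only the libraries compared, which have fewer residual degrees of freedom, gave 0 in JTL611, 1 in CA1199 and 2 in JTL621 on ethanol and 0 in JTL621 on auxin. The replicate block gave 3 in JTL611 on ethanol and 2 on auxin, and elsewhere left every count within 1.5 times. Leaving out 1 library gave 1 to 2 called in JTL611, 1 to 3 in CA1199 and 0 to 1 in JTL621 on ethanol, and 2 to 4 in CA1200, 0 to 3 in CA1199 and 0 to 3 in JTL621 on auxin. For 31 pairs of a member and a comparison, 921 alternative fits gave 819 with the same call, 73 that lost it, 29 that gained one and 0 that turned its sign. The cause of the losses was not tested. Depth limits hsp-12.1, hsp-12.3 and hsp-12.6, whose lowest library held 5, 10 and 4 reads, in that order.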
